A study of Homo sapiens with 11 samples.

Results

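Ribosome biogenesis genes encode the nucleolar machinery that transcribes, modifies, cuts and assembles ribosomal RNA into ribosomal subunits. A list of 56 such genes was followed here in an experiment on the BRG1/BRM inhibitor FHD-286, by matching their symbols to the Ensembl identifiers of a gene count table. All 56 were found, and all were among the 18908 genes tested. The list was split by textbook function into 5 RNA polymerase I transcription genes, 9 genes of small nucleolar ribonucleoproteins (snoRNPs), 3 nucleolar RNA-binding and helicase genes, 18 small subunit factors and 21 large subunit factors.

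RNA was sequenced from 11 libraries. They were OCI-AML3 with 100 nM FHD-286 for 16 h (n = 3), OCI-AML3 control (n = 3), OCI-AML3-FLT3-ITD with 100 nM FHD-286 for 16 h (n = 2) and OCI-AML3-FLT3-ITD control (n = 3). OCI-AML3 is an established human acute myeloid leukaemia line that carries a mutant NPM1, itself a nucleolar protein, and the other line is named for the internal tandem duplication of the receptor kinase gene FLT3. How the duplication was introduced, and whether the line is 1 clone, is not given in the labels. Both lines grew in RPMI with serum, and whether controls received a vehicle is not stated. FHD-286 blocks BRG1 and BRM, the motor proteins with which BAF complexes move nucleosomes. Nothing in the labels says that replicates were separate cultures, so p-values speak only of the spread among these libraries, which may be technical.

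As background, RNA polymerase I makes a long precursor ribosomal RNA in the nucleolus. Guide RNAs in snoRNPs direct its methylation and pseudouridylation, and many assembly factors fold and cut it into the small and large subunit. Growing cells spend much of their energy on this pathway. MYC, a transcription factor of growing cells, is known to activate many of its genes, often through the E-box sequence CACGTG.

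Total counts were 58397190 to 79172389 per library, and levels below are CPM, counts scaled to library size with TMM factors. FLT3 was at 42.0, 39.2 and 43.0 CPM in treated OCI-AML3 and 43.3, 41.1 and 41.5 CPM in OCI-AML3 controls. In the FLT3-ITD line it was at 171 and 169 CPM in treated libraries and at 178 and 203 CPM in control replicates 1 and 3. The library labelled FLT3-ITD control replicate 2 had 53.4 CPM of FLT3. That library was below both other FLT3-ITD controls for 50 of the 56 genes, above both for IMP3 and RRP1B, and below every OCI-AML3 control for all 56. Its log CPM correlated with those of the OCI-AML3 controls at r = 0.979 to 0.984. The OCI-AML3 controls correlated among themselves at r = 0.992 to 0.993. The library labelled replicate 2 correlated less with FLT3-ITD control replicates 1 and 3, at r = 0.957 and 0.960. Those replicates correlated with each other at r = 0.993. Tests use the library labelled replicate 2 under its label, and results that rest on it are also given without it. The median coefficient of variation of the 56 genes within a group was 2.55% in treated OCI-AML3, 5.27% in OCI-AML3 controls, 5.66% in treated FLT3-ITD and 15.8% in FLT3-ITD controls, or 5.56% without that library. Of the 6 myeloid markers, PTPRC, CD33, ANPEP, SPI1 and LYZ averaged over 10 CPM in every group, whereas MPO averaged 0.256 to 2.28 CPM. SPI1, LYZ, CD33 and MPO fell with FHD-286 in both lines, ANPEP rose in both, and PTPRC rose in OCI-AML3 and did not pass in the FLT3-ITD line. The summed level of the 6 ran from 519 to 549.8 CPM in treated OCI-AML3 against 858 to 883 CPM in its controls, and from 429 to 453 CPM in treated FLT3-ITD against 782 to 866 CPM in its controls. Erythroid and megakaryocyte markers summed to at most 0.794 CPM and stromal and epithelial ones to at most 0.635 CPM in any library, with HBB, PF4, CD3E and CDH1 at 0 throughout. The 4 lymphoid markers summed to 182 to 231 CPM, almost all of it NCAM1, with group means between 186 and 221 CPM. The part of these marker changes in the results below was not tested.

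Sequences before the RefSeq starts of these genes were searched for the E-box because MYC is known to bind it. Promoter windows of RefSeq (GRCh38.p14, 250 bases before the start) were found for 48 of the 56 genes. CACGTG, which reads the same on both strands, stood in 5 of them (10.4%), against 6.49% of all 27305 promoters and 8.69% of the 11739 promoters of tested genes. The related E-box CACGCG, searched on both strands (CGCGTG on the other), stood in 9 (18.8%), against 9.62% and 15.3% of the same sets, and no window of the list held both motifs. Each CACGTG match is shown as 30 bases on the gene's strand with the match in capitals, since these are the genes set against the others below. The CACGCG matches of UBTF and RRN3 follow, since these genes had fold changes above 0 with FHD-286. UBTF's is printed as CGCGTG, which is CACGCG on the opposite strand.
EBNA1BP2, chr1:43172790-43172819, minus strand: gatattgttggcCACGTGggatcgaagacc
IMP4, chr2:130342682-130342711, plus strand: gcggtcctaagtCACGTGtgacattctgta
NOP10, chr15:34343289-34343318, minus strand: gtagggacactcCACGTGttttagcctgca
NOP10, chr15:34343130-34343159, minus strand: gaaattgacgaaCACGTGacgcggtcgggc
UTP20, chr12:101280083-101280112, plus strand: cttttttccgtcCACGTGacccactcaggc
UTP4, chr16:69132621-69132650, plus strand: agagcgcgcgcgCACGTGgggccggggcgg
UBTF, chr17:44220880-44220909, minus strand: ggcggagcgcggCGCGTGgggctcgccatt
RRN3, chr16:15094337-15094366, minus strand: atacgccctcccCACGCGgggccgctgatt
Counted to the RefSeq start, the matches began 237 bases before it in EBNA1BP2, 203 in IMP4, and 170 and 11 in NOP10. They began 10 bases before it in UTP20, 16 in UTP4, 15 in UBTF and 19 in RRN3. Gene positions elsewhere in the text are those of GENCODE. The matches of EBNA1BP2, IMP4, UTP4 and UBTF and the nearer match of NOP10 lie inside the GENCODE gene intervals. Which start these cells use was not tested.

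FHD-286 lowered the RNA of nearly all listed genes in OCI-AML3. Of the 56 genes, 53 fell, none rose, and UBTF, RRN3 and EMG1 did not pass the test, where 21.5% of all tested genes fell and 19.8% rose. The median log2 fold change of the 56 was -0.78, beside 0.015 over all tested genes. The summed level of the 56 was 6311, 6384 and 6175 CPM in treated libraries, against 11200, 11010 and 11930 CPM in controls. The treated mean was 55.3% of the control mean. CPM are relative levels, so a change in total RNA per cell would not show in them. Every treated library lay below every control for 54 genes, where 33.2% of all tested genes did so, UBTF overlapped, and RRN3 was higher in all treated libraries, as were 32.8% of all tested genes. In bulk RNA, fewer cells expressing a gene and less RNA per cell cannot be told apart. Calls come from the quasi-likelihood test of edgeR, with p adjusted over all tested genes by Benjamini and Hochberg and called under 0.05. Without the library labelled FLT3-ITD control replicate 2, which shares the estimate of spread, 54 genes fell, where 29.8% of all tested genes fell and 29% rose.

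Most of the falls in OCI-AML3 were less than 2-fold. Fold changes on the log2 scale ran from -1.25 in WDR74 to 0.10 in RRN3. A fall of at least 2-fold was seen in 15 genes, where 6.52% of all tested genes fell that far, and 35 genes lay between -0.5 and -1 on the log2 scale. The other 6, POLR1B, UBTF, RRN3, NOP10, EMG1 and GNL2, lay above -0.5. The median was -0.41 for RNA polymerase I genes, with 3 of 5 lower, and -0.85 for snoRNP genes, with 9 of 9 lower. It was -1.09 for the RNA-binding and helicase genes, with 3 of 3 lower, -0.67 for small subunit factors, with 17 of 18 lower, and -0.81 for large subunit factors, with 21 of 21 lower.

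**Figure D1:**
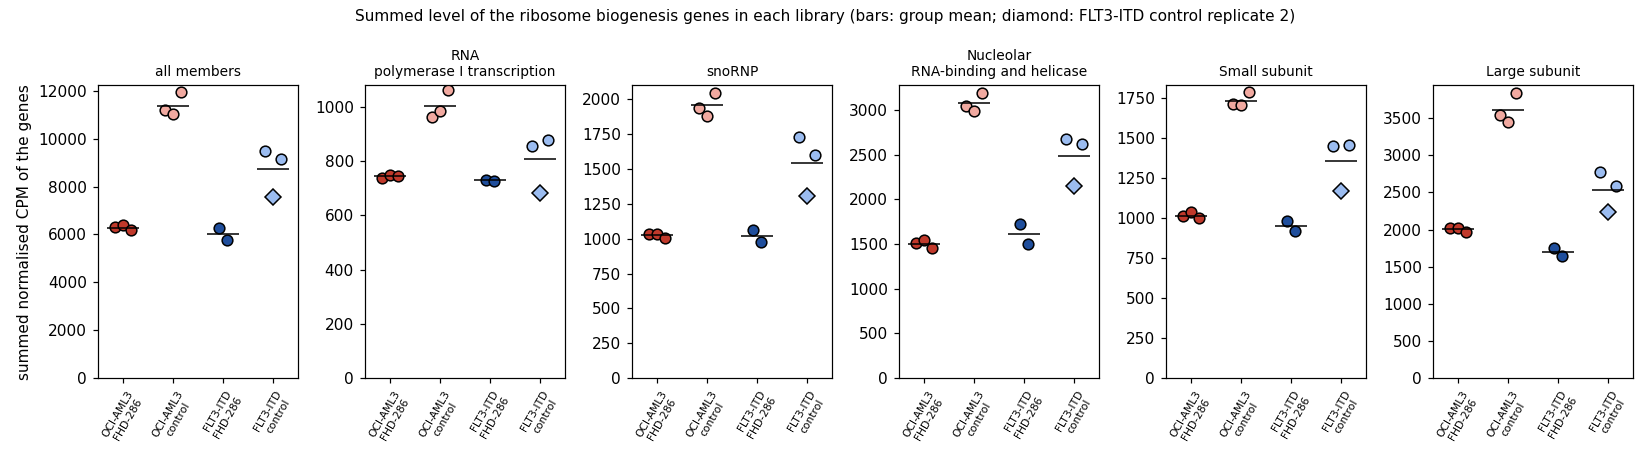
Summed normalised CPM (vertical axes, from 0) of all 56 genes and of each role group in every library, with the horizontal bar at the group mean and a diamond for the library labelled FLT3-ITD control replicate 2. In the panel of all members the treated OCI-AML3 libraries sit at 6175 to 6384 CPM below their controls at 11010 to 11930 CPM, and the treated FLT3-ITD libraries sit at 5773 and 6256 CPM below controls at 7553 to 9489 CPM.

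Among the genes for ribosomal RNA transcription, the scaffold and the polymerase subunits fell in OCI-AML3 and UBTF and RRN3 did not. TCOF1 encodes treacle, a nucleolar scaffold of polymerase I transcription (ENSG00000070814.17, chromosome 5, 150357629 to 150400308, GRCh38 throughout). It was at 127, 131 and 129 CPM in treated libraries and 273, 289 and 318 CPM in controls, with no overlap and a log2 fold change of -1.18 (SE 0.14, adjusted p 7.8e-05). POLR1A, the largest polymerase I subunit (ENSG00000068654.15, chromosome 2, 86020216 to 86106155), was at 126, 131 and 131 CPM in treated libraries and 187, 207 and 211 CPM in controls (log2 fold change -0.64, SE 0.077, adjusted p 8.45e-05). POLR1B, the subunit that forms the active site with it (ENSG00000125630.15, chromosome 2, 112541915 to 112577150), had 97.0, 99.5 and 95.1 CPM in treated libraries and 131, 126 and 129 CPM in controls, a smaller fall (log2 fold change -0.41, SE 0.070, adjusted p 0.000956).

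UBTF encodes UBF, the protein that coats active ribosomal DNA (ENSG00000108312.14, chromosome 17, 44205033 to 44221626). Its level was 297, 294 and 298 CPM in treated libraries and 287, 281 and 316 CPM in controls. These ranges overlapped, and the log2 fold change of 0.008 (SE 0.090) did not pass the test, at an adjusted p of 0.957. RRN3 encodes the initiation factor TIF-IA, which brings polymerase I to its promoter (ENSG00000085721.12, chromosome 16, 15060022 to 15094317). It was at 90.7, 94.3 and 92.6 CPM in treated libraries and 87.2, 82.6 and 88.3 CPM in controls, all treated values above all control values. Its log2 fold change of 0.10 (SE 0.079) did not pass the test either, at an adjusted p of 0.316. Scaling by library totals alone put RRN3 at 0.261, which passed, and UBTF at 0.164.

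All 9 snoRNP genes fell in OCI-AML3. NOP56, a core protein of the box C/D snoRNPs that guide ribose methylation (ENSG00000101361.15, chromosome 20, 2652145 to 2658393), was at 206, 204 and 203 CPM in treated libraries and 384, 382 and 409.9 CPM in controls (log2 fold change -0.94, SE 0.069, adjusted p 3.34e-06). NOLC1, a chaperone that links snoRNPs to the nucleolus (ENSG00000166197.16, chromosome 10, 102152176 to 102163871), was at 234, 236 and 226 CPM in treated libraries and 536, 535 and 577 CPM in controls. Its log2 fold change of -1.24 (SE 0.11, adjusted p 1.39e-05) was the lowest of the group. DKC1 encodes dyskerin, the pseudouridine synthase of the box H/ACA snoRNPs (ENSG00000130826.16, chromosome X, 154762742 to 154777689). It was at 142, 144 and 138 CPM in treated libraries and 253, 244 and 265 CPM in controls (log2 fold change -0.85, SE 0.079, adjusted p 1.65e-05).

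NOP10, the smallest partner of dyskerin (ENSG00000182117.5, chromosome 15, 34341713 to 34343177), fell least of the 9. It had 64.7, 64.8 and 66.8 CPM in treated libraries and 88.3, 78.96 and 88.9 CPM in controls, a log2 fold change of -0.38 (SE 0.11, adjusted p 0.0143). It no longer passed without OCI-AML3 control replicate 1 (-0.359), without control replicate 3 (-0.354) or with library totals (-0.227). NHP2 and GAR1, the other H/ACA proteins, had log2 fold changes of -1.04 (SE 0.12) and -0.72 (SE 0.12). FBL, the methyltransferase fibrillarin of the C/D particle, had -0.81 (SE 0.11), its partner NOP58 -0.75 (SE 0.11) and RRP9, a protein specific to the U3 particle, -0.95 (SE 0.19).

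The nucleolar RNA-binding and helicase genes all fell, among them the most abundant transcript of the list per length. NCL encodes nucleolin, a major RNA-binding protein of the nucleolus (ENSG00000115053.15, chromosome 2, 231453531 to 231483641). It was at 1103, 1120 and 1061 CPM in treated libraries and 2292, 2248 and 2449 CPM in controls, well apart (log2 fold change -1.09, SE 0.094, adjusted p 9.54e-06). Per kilobase of annotated exon NCL had 336 CPM in OCI-AML3 controls, followed by NOP10 at 154 and NOLC1 at 138, while EMG1 at 1.52 and PPAN at 3.21 were at the low end of the 56. LYAR, a zinc finger protein tied to precursor RNA processing (ENSG00000145220.13, chromosome 4, 4267701 to 4290169), was at 48.0, 48.2 and 45.0 CPM in treated libraries and 106, 102 and 106 CPM in controls (log2 fold change -1.15, SE 0.11, adjusted p 2.2e-05). DDX21 is an RNA helicase of the nucleolus (ENSG00000165732.12, chromosome 10, 68956128 to 68985073). Its level was 356, 374 and 353 CPM in treated libraries and 640.3, 640 and 634 CPM in controls, again with no overlap (log2 fold change -0.82, SE 0.12, adjusted p 0.000239).

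Small subunit factors fell in 17 of 18 cases in OCI-AML3, early and late ones alike. UTP4, a member of the UtpA complex that first binds the nascent precursor (ENSG00000141076.17, chromosome 16, 69131291 to 69231130), was at 66.6, 65.8 and 64.2 CPM in treated libraries and 121, 116 and 134 CPM in controls (log2 fold change -0.92, SE 0.081, adjusted p 1.19e-05). IMP4, which holds the U3 snoRNA to the precursor (ENSG00000136718.9, chromosome 2, 130342225 to 130347810), was at 72.7, 68.0 and 67.0 CPM in treated libraries and 141, 136 and 148 CPM in controls (log2 fold change -1.03, SE 0.091, adjusted p 1.19e-05). TSR1, a late cytoplasmic assembly factor (ENSG00000167721.10, chromosome 17, 2322503 to 2337507), was at 72.8, 72.9 and 69.6 CPM in treated libraries and 147, 146 and 157 CPM in controls (log2 fold change -1.06, SE 0.081, adjusted p 4.39e-06). Of TSR1's annotated exon length 20.9% is shared with other genes, all on the opposite strand. Part of its counts could belong to them if counting ignored the strand. NOB1, the nuclease that makes the final cut of 18S RNA, had a log2 fold change of -0.75 (SE 0.084), and its partner PNO1 one of -0.72 (SE 0.15).

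EMG1, a methyltransferase of 18S RNA (ENSG00000126749.14, chromosome 12, 6970893 to 6997428), was the 1 small subunit factor that did not pass the test. It was at 7.93, 7.17 and 7.40 CPM in treated libraries and 9.26, 9.95 and 9.41 CPM in controls, a log2 fold change of -0.35 (SE 0.17, adjusted p 0.136). The ranges did not overlap, and without the library labelled FLT3-ITD control replicate 2 the fold change of -0.35 passed at an adjusted p of 0.00207. EMG1 shares 53.1% of its exon length with C1S and LPCAT3 (3.65% on its own strand), so its low count is uncertain. The other 12 members of the group had log2 fold changes between -1.04 in RRP12, a factor of subunit export, and -0.55 in HEATR1, a UtpA protein. LTV1 passed with all libraries, at -0.63 (SE 0.21, adjusted p 0.0344). It did not pass when any 1 of the 6 OCI-AML3 libraries was left out (-0.653 to -0.593) or with library totals (-0.474). Of LTV1's exon length 34.8% is shared with other annotated genes on its own strand, so part of its counts could belong to them.

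Every large subunit factor fell in OCI-AML3. NOP2, a methyltransferase of 28S RNA (ENSG00000111641.11, chromosome 12, 6556863 to 6568691), was at 89.2, 90.2 and 89.8 CPM in treated libraries and 159.5, 165 and 180.3 CPM in controls (log2 fold change -0.91, SE 0.062, adjusted p 2.12e-06), with 54.4% of its exon length shared with another annotated gene. WDR74 acts in early 60S maturation (ENSG00000133316.15, chromosome 11, 62832342 to 62841809). It had 24.1, 22.7 and 21.7 CPM in treated libraries and 54.2, 50.7 and 58.1 CPM in controls, and its log2 fold change of -1.25 (SE 0.088, adjusted p 2.6e-06) was the lowest of the 56, with 22.3% of its exon length shared. MRTO4 holds the place of a ribosomal stalk protein, as known from yeast (ENSG00000053372.4, chromosome 1, 19251539 to 19260128). It was at 71.9, 74.1 and 66.4 CPM in treated libraries and 164, 153 and 183 CPM in controls (log2 fold change -1.24, SE 0.097, adjusted p 5.14e-06).

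GNL2, a nucleolar GTPase of the pre-60S particle (ENSG00000134697.12, chromosome 1, 37566816 to 37595935), changed least in the group. It was at 68.9, 68.2 and 68.7 CPM in treated libraries and 95.0, 91.8 and 98.5 CPM in controls (log2 fold change -0.47, SE 0.11, adjusted p 0.00616). BOP1, PES1 and WDR12 form the PeBoW complex of 28S RNA processing. Their log2 fold changes were -1.07 (SE 0.17), -0.91 (SE 0.11) and -0.64 (SE 0.077). NOP16, RRP1B and EBNA1BP2 were also at least 2-fold lower, at -1.16 (SE 0.11), -1.004 (SE 0.27) and -1.10 (SE 0.19). RRP1B did not pass without OCI-AML3 FHD-286 replicate 3, at -0.963. EBNA1BP2 fell to 61.3, 61.1 and 59.5 CPM in treated libraries, against 129.9, 121 and 139 CPM in controls.

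**Figure D2:**
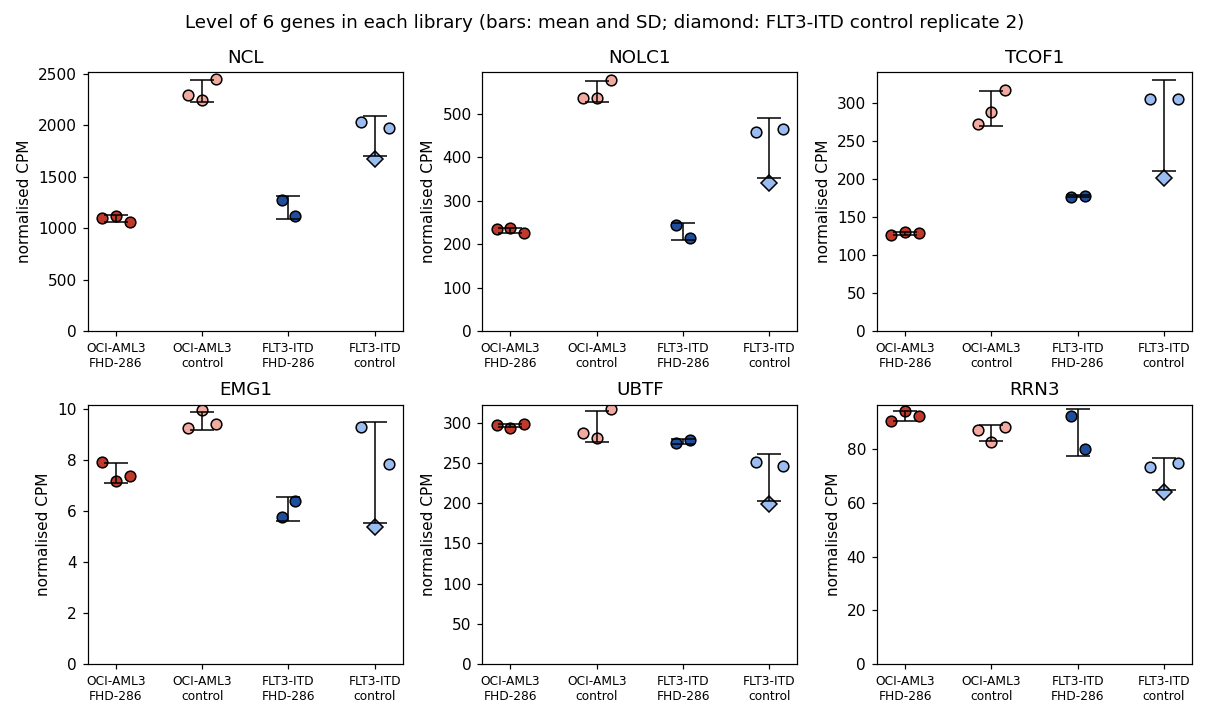
Normalised CPM (vertical axes, from 0) of 6 genes in every library of the 4 groups, with bars for the mean and SD and a diamond for the library labelled FLT3-ITD control replicate 2. NCL, NOLC1 and TCOF1 are lower in every treated library than in any control of the same line, EMG1 is low throughout, and UBTF and RRN3 show no fall.

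Promoter matches were set beside the size of change. Genes with CACGTG in the printed windows had a median log2 fold change of -0.92 in OCI-AML3 (n = 5, from -1.10 in EBNA1BP2 to -0.38 in NOP10), and the 43 with a promoter window and no match had -0.72, from -1.25 to 0.10. In the FLT3-ITD line the medians were -0.53 and -0.47. These ranges overlap and no test was made. UBTF and RRN3 both held CACGCG, as did 7 genes of the list that fell, DDX10, DDX21, DDX56, FBL, MRTO4, NOC2L and NOP14. The list also held 8 genes with small nucleolar RNA genes on their own strand, NOP56, NOP58, DKC1, NCL, WDR43, TSR1, GNL3 and PPAN, and their log2 fold changes ran from -1.09 in NCL to -0.64 in WDR43.

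In the FLT3-ITD line FHD-286 also lowered most of the list. Of the 56 genes, 36 fell, RRN3 rose, and 19 did not pass the test, where 14.9% of all tested genes fell and 15.6% rose. The median log2 fold change was -0.53, beside -0.019 over all tested genes. The summed level was 6256 and 5773 CPM in treated libraries, against 9489, 7553 and 9139 CPM in controls, or 68.9% of the control mean. The control of 7553 CPM is the library labelled replicate 2, and without it the treated mean was 64.6% of the control mean. Without it 54 genes fell, where 24.2% of all tested genes did, RRN3 rose, where 24.8% did, UBTF did not pass, and the median was -0.61. All 36 genes that fell in this line also fell in OCI-AML3, where they are 36 of the 53 that fell, and without that library 54 fell in both. With only 2 treated libraries the count depended on each. It was 26 without treated replicate 1, where 6.88% of all tested genes fell, and 20 without treated replicate 2, where 7.93% did, the remaining treated library then being assumed to vary like the other groups. Treated ranges lay below control ranges for 40 genes, where 22.9% of all tested genes did so, and above them for UBTF and RRN3, where 26.1% did. They lay below for 54 without the library labelled replicate 2, where 33.7% of all tested genes did so.

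By role, the FLT3-ITD line had 3 of 5 RNA polymerase I genes lower with a median log2 fold change of -0.25, 5 of 9 snoRNP genes with -0.54 and 3 of 3 RNA-binding and helicase genes with -0.66. It had 9 of 18 small subunit factors lower with -0.48 and 16 of 21 large subunit factors with -0.54. At least 2-fold lower were RRP1B and WDR74, where 6.07% of all tested genes fell that far, and RRP1B did not pass without treated replicate 1 (-1.255) or 2 (-1.171). With the library labelled replicate 2 left out these were NOLC1, RRP12, BOP1, WDR74 and MRTO4, where 7.12% did.

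**Figure D3:**
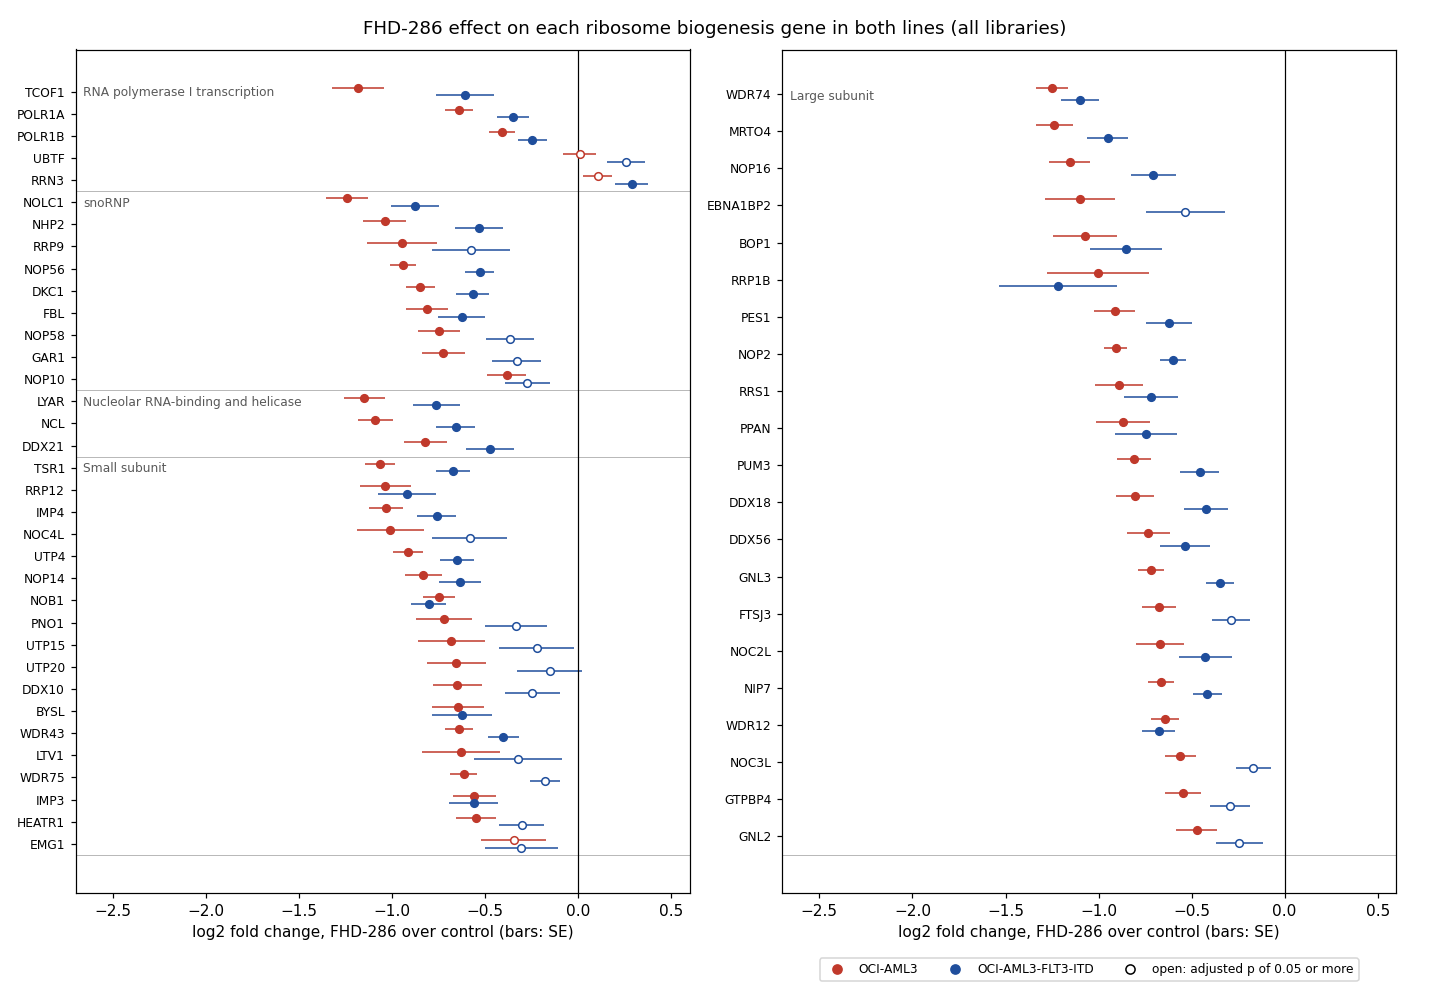
Log2 fold change of FHD-286 over control (horizontal axes) for each of the 56 genes by role group, red for OCI-AML3 and blue for OCI-AML3-FLT3-ITD, with SE bars and open circles where adjusted p was 0.05 or more. Points lie left of 0 in both lines except for UBTF and RRN3, and blue points mostly lie to the right of red ones.

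The transcription genes kept the same order in the FLT3-ITD line. TCOF1 was at 177 and 179 CPM in treated libraries and 306, 201 and 306 CPM in controls, the second control being the library that stands apart (log2 fold change -0.61, SE 0.16, adjusted p 0.014). POLR1A was at 104 and 112 CPM in treated libraries and 129.8, 134 and 151 CPM in controls (log2 fold change -0.35, SE 0.086, adjusted p 0.011). POLR1B was at 82.6 and 78.1 CPM in treated libraries and 96.5, 86.5 and 103 CPM in controls (log2 fold change -0.25, SE 0.079, adjusted p 0.0371). These fell, whereas the initiation factor gene RRN3 rose. Without treated replicate 1 none of the 3 passed (TCOF1 -0.602, POLR1A -0.299 and POLR1B -0.288), and without treated replicate 2 neither TCOF1 (-0.61) nor POLR1B (-0.203) did. POLR1B also missed the threshold without either other FLT3-ITD control (-0.241 and -0.189) or without 1 of 5 OCI-AML3 libraries (-0.248 to -0.247), with library totals (-0.141), with no filter on low counts (-0.258) and with the replicate block (-0.231). RRN3 had 92.6 and 80.1 CPM in treated libraries and 73.5, 64.0 and 74.9 CPM in controls (log2 fold change 0.29, SE 0.087, adjusted p 0.03). Without the library labelled replicate 2 it also rose, by 0.22 on the log2 scale (SE 0.074, adjusted p 0.0187), and without OCI-AML3 FHD-286 replicate 3 (0.268) or FLT3-ITD FHD-286 replicate 1 (0.179) it did not pass. UBTF was at 274 and 279 CPM in treated libraries and 251, 198 and 246 CPM in controls, with no overlap but an adjusted p of 0.0784 (log2 fold change 0.26, SE 0.10). It was 0.16 without the library labelled replicate 2 (adjusted p 0.074), and passed without FLT3-ITD control replicate 1, at 0.315. UBTF also passed with upper-quartile factors (0.233), library totals (0.364) and a filter asking for a CPM of 1 in 3 libraries (0.255). RRN3 did not pass with no filter on low counts (0.277).

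Among snoRNP genes, NOLC1 again changed most. It was at 243 and 215 CPM in treated FLT3-ITD libraries and 458, 340.2 and 464 CPM in controls (log2 fold change -0.88, SE 0.13, adjusted p 0.000556). NOP56 was at 214 and 210.1 CPM in treated libraries and 327, 281 and 311 CPM in controls (log2 fold change -0.53, SE 0.078, adjusted p 0.000585). The dyskerin gene DKC1 was at 142 and 128 CPM in treated libraries and 217, 179.9 and 204 CPM in controls (log2 fold change -0.57, SE 0.089, adjusted p 0.000921). NOP10 was at 59.1 and 58.3 CPM in treated libraries and 85.1, 64.5 and 63.3 CPM in controls and did not pass (log2 fold change -0.27, SE 0.12, adjusted p 0.109). Without the library labelled replicate 2 it fell, with a log2 fold change of -0.34 and an adjusted p of 0.00738. NOP58, RRP9 and GAR1 did not pass with all libraries, at adjusted p of 0.0509, 0.0621 and 0.0815, and fell without that library.

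NCL, LYAR and DDX21 fell in the FLT3-ITD line too. NCL was at 1277 and 1122 CPM in treated libraries and 2028, 1669 and 1977 CPM in controls (log2 fold change -0.66, SE 0.10, adjusted p 0.00103). LYAR was at 52.4 and 42.7 CPM in treated libraries and 94.6, 69.8 and 77.5 CPM in controls (log2 fold change -0.76, SE 0.13, adjusted p 0.00126). DDX21 was at 399.5 and 338 CPM in treated libraries and 554, 413 and 566 CPM in controls (log2 fold change -0.47, SE 0.13, adjusted p 0.0185). No treated value of these genes reached a control value. DDX21 did not pass without treated replicate 2, at -0.352.

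Small subunit factors were split in the FLT3-ITD line when all libraries were used. TSR1 was at 73.3 and 69.1 CPM in treated libraries and 119, 99.4 and 122 CPM in controls (log2 fold change -0.67, SE 0.092, adjusted p 0.000385). IMP4 was at 56.2 and 52.8 CPM in treated libraries and 105, 81.0 and 91.0 CPM in controls (log2 fold change -0.76, SE 0.10, adjusted p 0.000375). UTP4 was at 67.1 and 64.5 CPM in treated libraries and 111, 92.6 and 106 CPM in controls (log2 fold change -0.65, SE 0.092, adjusted p 0.000471). For these genes no treated library reached a control. The 9 that did not pass were HEATR1, WDR75, UTP15, UTP20, NOC4L, EMG1, PNO1, LTV1 and DDX10, and all 9 fell without the library labelled replicate 2. UTP15, another UtpA protein, had 24.2 and 21.9 CPM in treated libraries, 31.6 and 31.4 CPM in control replicates 1 and 3, and 17.7 CPM in that library. EMG1 was at 5.75 and 6.41 CPM in treated libraries and 9.32, 5.38 and 7.84 CPM in controls (log2 fold change -0.31, SE 0.20, adjusted p 0.267), and at a log2 fold change of -0.49 without it (adjusted p 0.000795).

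Large subunit factors were lower in 16 of 21 cases. WDR74 was at 21.3 and 22.5 CPM in treated FLT3-ITD libraries and 51.5, 42.9 and 46.6 CPM in controls (log2 fold change -1.10, SE 0.10, adjusted p 2.77e-05). MRTO4 was at 52.5 and 49.3 CPM in treated libraries and 110.1, 87.6 and 97.6 CPM in controls (log2 fold change -0.95, SE 0.11, adjusted p 0.000132). NOP2 was at 64.1 and 64.5 CPM in treated libraries and 101, 94.3 and 97.5 CPM in controls (log2 fold change -0.60, SE 0.070, adjusted p 0.000141). In these genes the library that stands apart was the lowest control but lay above both treated libraries. GNL2 had 84.1 and 75.4 CPM in treated libraries and 108, 75.9 and 98.9 CPM in controls and did not pass (log2 fold change -0.24, SE 0.12, adjusted p 0.167). It fell without that library, at a log2 fold change of -0.38 and an adjusted p of 0.000202, as did EBNA1BP2, GTPBP4, NOC3L and FTSJ3, the others that had not passed.

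**Figure D4:**
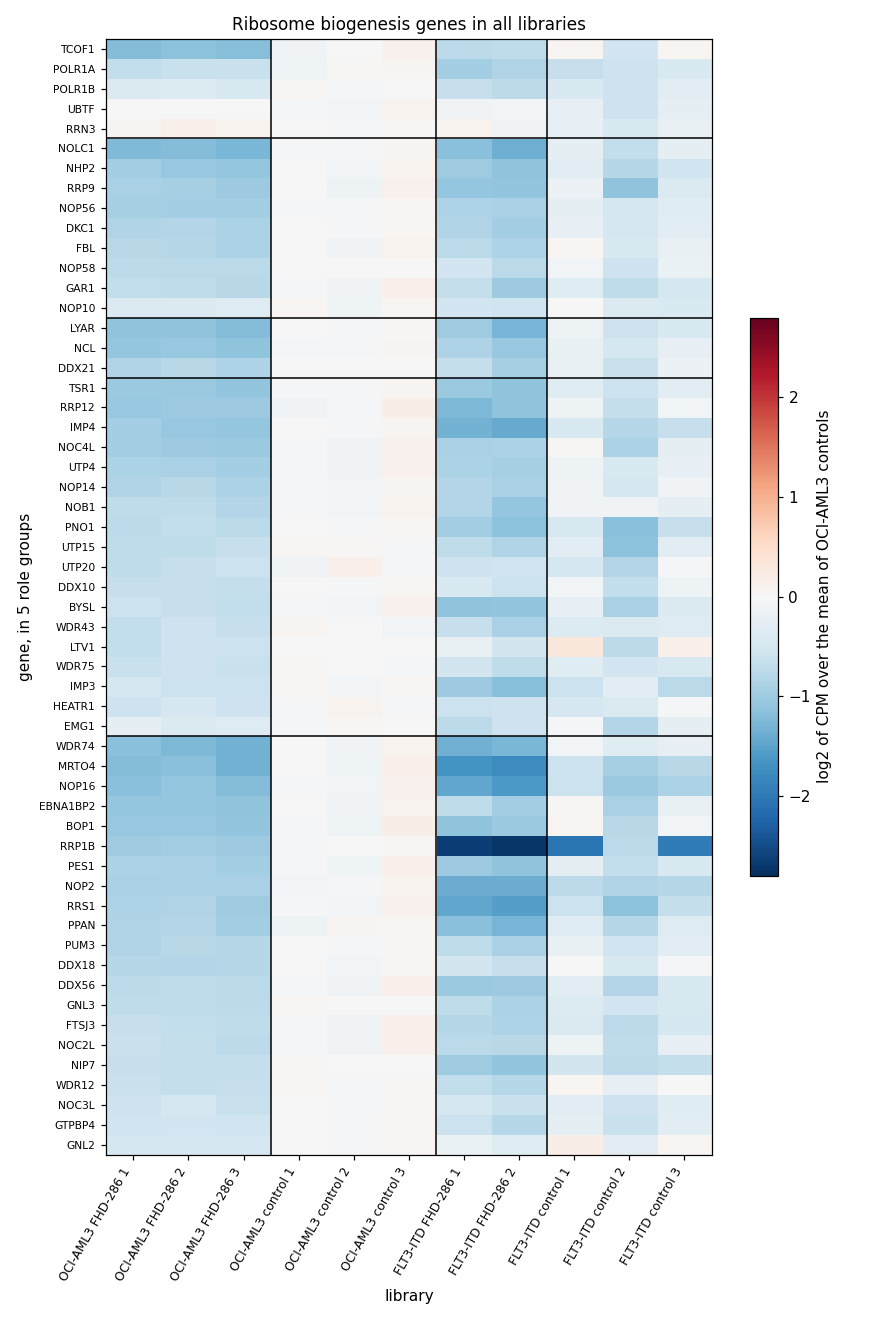
Log2 of CPM over the mean of OCI-AML3 controls (colour, blue for lower and red for higher) for each of the 56 genes (rows, by role group) in each of the 11 libraries (columns, by group). Treated columns are blue in almost every row, UBTF and RRN3 stay nearer white, and RRP1B reaches the lowest value of the map in the treated FLT3-ITD libraries.

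Whether the fall was the same in both lines was asked with the difference of the effects, FLT3-ITD minus OCI-AML3. No member passed edgeR's quasi-likelihood test, where 3.36% of all tested genes did, 1.98% higher and 1.38% lower. At an unadjusted p under 0.05 in edgeR's test there were 19 members, all higher. Of all tested genes 18.1% reached that level in either direction, and 10% did so as higher. DESeq2's Wald test called 5 members higher, where it called 4.29% of all tested genes higher. The difference was above 0, which for a gene that fell is a smaller fall in the FLT3-ITD line, for 52 of 56 members and for 48.7% of all tested genes, with medians of 0.29 for the members and -0.013 for all tested genes. Without the library labelled replicate 2, 6 members were below 0. Each effect is set by its own line's controls. Without the library labelled FLT3-ITD control replicate 2, 12 members were higher in the difference and none lower, where 9.63% of all tested genes were higher and 7.39% lower. Without FLT3-ITD control replicate 1 it was 6, where 3.97% were higher, and without replicate 3 it was 1, where 2.1% were.

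The 12 were TCOF1, NOP56, NHP2, NCL, WDR75, TSR1, NOP2, NOP16, RRP1B, GNL3, NOC3L and FTSJ3. For the treacle gene TCOF1 the difference was 0.40 without that library (SE 0.094, adjusted p 0.005), against 0.57 with it (SE 0.21, adjusted p 0.171). For WDR75, another UtpA protein, it was 0.39 without that library (SE 0.096, adjusted p 0.00695) and 0.44 with it (SE 0.11, adjusted p 0.0577). For NCL it was 0.35 without that library (SE 0.10, adjusted p 0.0211) and 0.43 with it (SE 0.14, adjusted p 0.128). The size of these differences was thus lower without the library while their spread was also lower. RRP1B changed sign, being 0.33 without that library (SE 0.088, adjusted p 0.0119) and -0.21 with it (SE 0.41, adjusted p 0.819).

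Untreated cells of the lines already differed in these genes. In untreated FLT3-ITD cells 34 of the 56 genes were lower than in untreated OCI-AML3 and none was higher, where 13.5% of all tested genes were lower and 14.5% higher. All 56 log2 fold changes were below 0, with a median of -0.37 beside 0.013 over all tested genes, while 52 were below 0 without the library labelled FLT3-ITD control replicate 2 and 53 with upper-quartile factors or library totals. The summed level in FLT3-ITD controls was 76.7% of that in OCI-AML3 controls, or 81.9% without the library labelled replicate 2. Without that library 39 genes were lower, where 25.4% of all tested genes were, LTV1 was higher, where 24.1% were, and the median was -0.28. Without OCI-AML3 control replicate 3 the count was 20, where 7.27% of all tested genes were lower. Control ranges of the lines did not overlap for 41 genes, all lower in the FLT3-ITD line, where 19.8% of all tested genes were lower without overlap. This comparison uses the same controls as the FHD-286 effects, so its values are not independent of them.

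By role, 4 of 5 RNA polymerase I genes, 5 of 9 snoRNP genes, 2 of 3 RNA-binding and helicase genes, 9 of 18 small subunit factors and 14 of 21 large subunit factors were lower. UBTF and RRN3 were among the genes lower in the FLT3-ITD line, with log2 fold changes of -0.35 (SE 0.091, adjusted p 0.0176) and -0.28 (SE 0.079, adjusted p 0.0238). UBTF did not pass without OCI-AML3 control replicate 3 (-0.293), nor RRN3 without OCI-AML3 control replicate 1 (-0.271) or 3 (-0.262) or OCI-AML3 FHD-286 replicate 3 (-0.254). TCOF1 did not pass, at -0.11 (SE 0.14, adjusted p 0.567), or 0.061 without the library labelled replicate 2 (adjusted p 0.475). The methyltransferase gene NOP2 had the smallest p, with 101, 94.3 and 97.5 CPM in FLT3-ITD controls and 159.5, 165 and 180.3 CPM in OCI-AML3 controls (log2 fold change -0.79, SE 0.062, adjusted p 0.000101). NIP7, a pre-60S factor, followed with 75.1, 64.7 and 67.8 CPM in FLT3-ITD controls and 110.5, 106 and 106 CPM in OCI-AML3 controls (log2 fold change -0.64, SE 0.068, adjusted p 0.000321). MRTO4, NOP16, POLR1A, IMP4, GNL3, POLR1B, RRS1 and WDR75 completed the 10 with the smallest p, with log2 fold changes from -0.83 in NOP16 to -0.43 in POLR1B. NOP16, RRS1 and NIP7 each share over 10% of their exon length with another gene, and NOP2 shares 54.4%, on its own strand.

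RRP1B, a nucleolar protein of pre-60S assembly (ENSG00000160208.12, chromosome 21, 43659548 to 43696079), differed most between the untreated lines. It was at 129 and 137 CPM in replicates 1 and 3 of the FLT3-ITD controls and at 316 CPM in the library labelled replicate 2, against 519.6, 532 and 549 CPM in OCI-AML3 controls. The log2 fold change was -1.46 (SE 0.28, adjusted p 0.00445), or -2.00 without that library (SE 0.067, adjusted p 8.18e-16). Treated libraries kept this gap, with 85.8 and 81.2 CPM in treated FLT3-ITD and 266, 269.8 and 262 CPM in treated OCI-AML3. LTV1, an assembly factor of the small subunit, changed sign with the library, at 0.23 without it (SE 0.083, adjusted p 0.0246) and -0.022 with it (SE 0.21, adjusted p 0.951). Its CPM were 45.3 and 39.8 in replicates 1 and 3 of the FLT3-ITD controls, 21.9 in that library and 36.2, 36.7 and 35.7 in OCI-AML3 controls. These counts may include reads of the genes that share 34.8% of LTV1's exon length.

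After treatment the summed level of the list overlapped between lines, while single genes lay on both sides. The sum was 6256 and 5773 CPM in treated FLT3-ITD and 6311, 6384 and 6175 CPM in treated OCI-AML3, ranges that overlap, and the FLT3-ITD mean was 95.6% of the OCI-AML3 mean. CPM ranges of the treated lines did not overlap for 25 genes lower in FLT3-ITD, where 32.9% of all tested genes were lower in this way, and for 10 higher, where 33.3% were. The 10 were TCOF1, NOP56, NCL, UTP20, NOC4L, LTV1, DDX10, GNL2, DDX18 and EBNA1BP2.

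**Figure D5:**
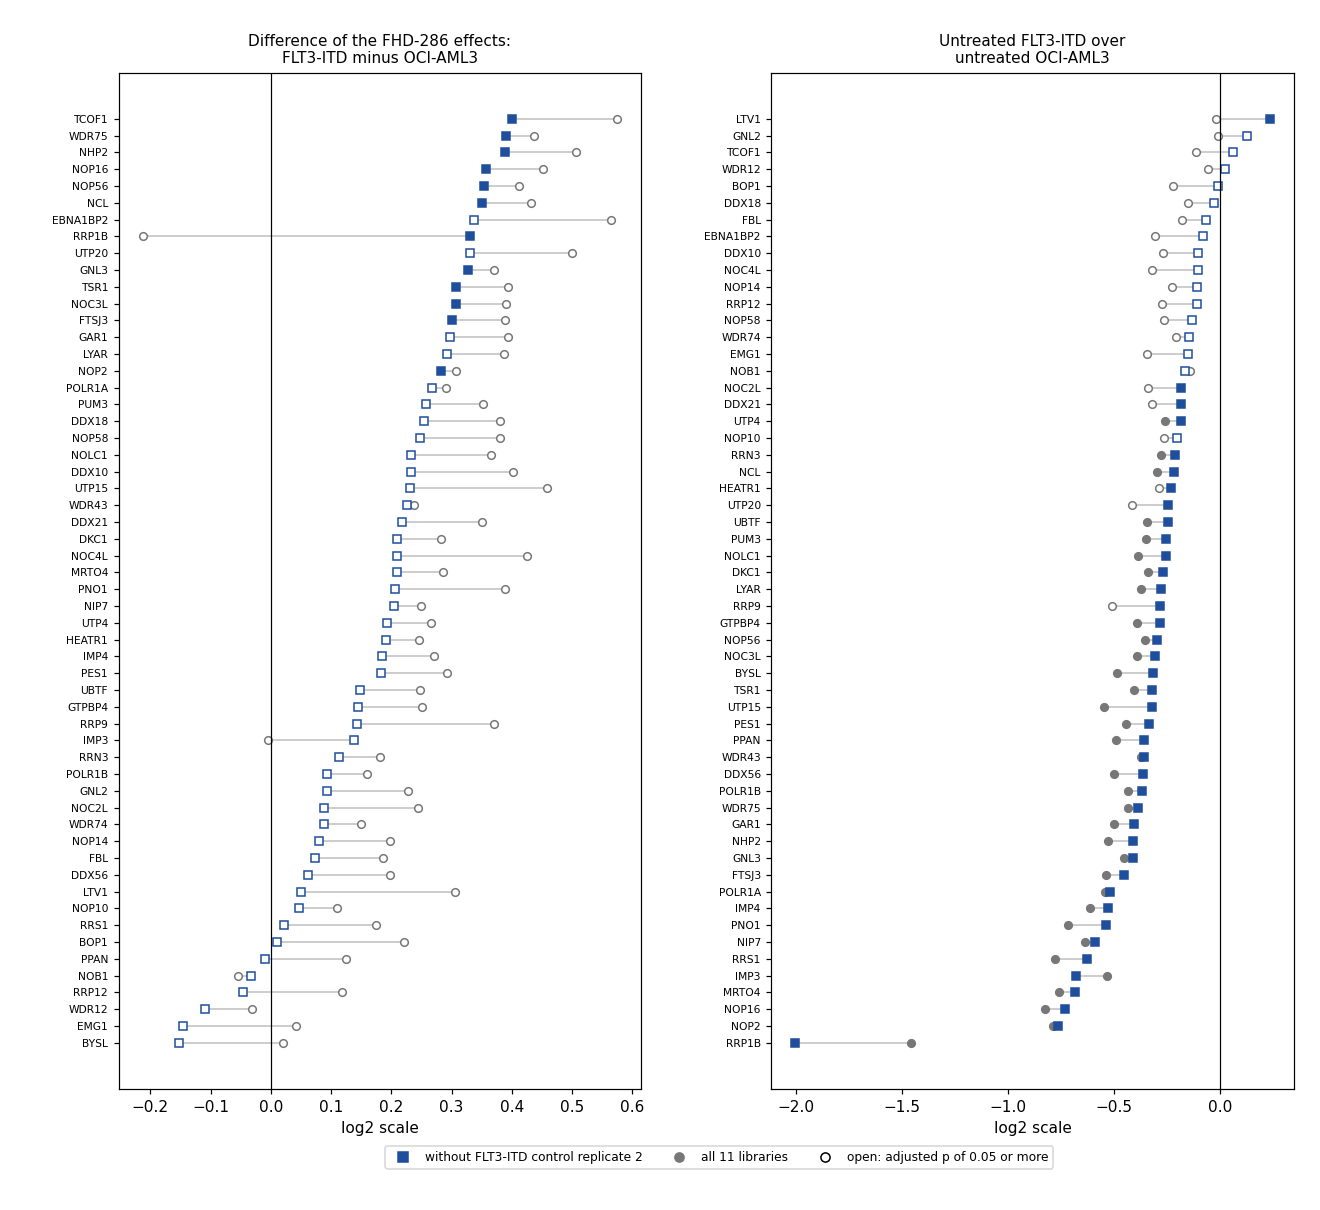
Difference of the FHD-286 effects, FLT3-ITD minus OCI-AML3 (left, log2 scale), and log2 fold change of untreated FLT3-ITD over untreated OCI-AML3 (right) for each of the 56 genes, as blue squares without the library labelled FLT3-ITD control replicate 2 and grey circles with all 11 libraries, open where adjusted p was 0.05 or more. On the left most points lie above 0 and 12 squares are filled, and on the right most points lie below 0, with RRP1B at -2.00 without that library.

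Other genes of the pathway, outside the list of 56, were counted by the same test. In OCI-AML3, 8 of 11 further polymerase I genes, 28 of 34 small subunit factors, 31 of 36 large subunit factors and 12 of 14 RNA exosome genes fell and none rose, where 21.5% of all tested genes fell, with a median log2 fold change of -0.50 over all 95. In the FLT3-ITD line 5, 11, 17 and 4 of these fell, TAF1B rose and 57 of the 95 did not pass, where 14.9% of all tested genes fell, with a median of -0.25. There 65 of the 95 fell without the library labelled replicate 2, where 24.2% of all tested genes did. POLR1E, a polymerase I subunit, was at 42.4, 41.5 and 42.0 CPM in treated OCI-AML3 and 73.3, 68.0 and 77.0 CPM in its controls, with a log2 fold change of -0.79 (SE 0.083). In the FLT3-ITD line that of POLR1E was -0.44 (SE 0.094). POLR1G, its partner subunit, had -1.15 (SE 0.17) in OCI-AML3, and 45.1% of its exon length is shared with other genes. POLR1H, a small polymerase I subunit, had -0.46 (SE 0.093) in the FLT3-ITD line, with 24.5% shared. TAF1B, a subunit of the promoter factor SL1, was at 30.8 and 28.5 CPM in treated FLT3-ITD and 22.3, 23.0 and 22.8 CPM in its controls (log2 fold change 0.39, SE 0.083, adjusted p 0.00555), and in OCI-AML3 its 0.18 (SE 0.075, adjusted p 0.0714) did not pass.

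Of the further small subunit factors, the UtpB protein UTP6 was at 75.6, 72.4 and 71.1 CPM in treated OCI-AML3 and 137, 133 and 142 CPM in its controls (log2 fold change -0.91, SE 0.073). WDR3, of the same complex, had a log2 fold change of -0.82 there (SE 0.081, 17.1% of exon length shared). NAT10, which acetylates 18S RNA, was at 109.9 and 108 CPM in treated FLT3-ITD and 213, 184 and 215 CPM in its controls (log2 fold change -0.90, SE 0.087). For large subunit processing, LAS1L, part of the complex that cuts the second internal spacer, was at 81.0, 77.5 and 74.4 CPM in treated OCI-AML3 and 162, 156 and 178 CPM in its controls (log2 fold change -1.09, SE 0.085). NPM3, a nucleoplasmin of the nucleolus, had -1.15 (SE 0.12) in OCI-AML3 and -0.93 (SE 0.13) in the FLT3-ITD line, and URB1, a pre-60S factor, had -0.74 (SE 0.11) in that line. EXOSC5 and EXOSC7, ring subunits of the RNA exosome that trims precursor RNA, had -1.06 (SE 0.12) and -0.76 (SE 0.092) in OCI-AML3, the second with 13.6% of exon length shared. All these genes passed the test in the line named. Without the library labelled FLT3-ITD control replicate 2 the FLT3-ITD values were -0.97 for NAT10, -1.05 for NPM3 and -0.77 for URB1, and above they were -0.52 for POLR1E, -0.46 for POLR1H and 0.40 for TAF1B.

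MYC moved with the list. It was at 223, 233 and 218 CPM in treated OCI-AML3 and 813, 781 and 871 CPM in its controls, and at 200.2 and 178 CPM in treated FLT3-ITD and 639, 759 and 598 CPM in its controls. Its log2 fold change was -1.87 (SE 0.098, adjusted p 4.6e-07) in OCI-AML3 and -1.82 (SE 0.11, adjusted p 2.75e-06) in the FLT3-ITD line, or -1.71 there without the library labelled replicate 2 (SE 0.080, adjusted p 4.62e-13). That library had the highest MYC of its group, while it was lowest of its group for 50 of the 56 genes. The part of MYC in the fall of the list was not tested.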

How the data were processed

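Total RNA of 11 libraries of 2 human leukaemia lines was sequenced. The authors deposited 1 table of raw gene counts, and per the submitters' processing notes reads were aligned with STAR to hg38. The counting program, its strand setting and its annotation are not given in the sources used here. IDs were matched to GENCODE 29 for symbols, positions and exon overlap. Genes without enough counts in enough libraries were dropped by edgeR's filterByExpr, given the groups (minimum count 10, minimum total 15), which left 18908 genes. Groups came from the titles, each with 1 mean in an edgeR 4.0.16 quasi-likelihood fit in R 4.3.3 with TMM scaling and 7 residual degrees of freedom, with Benjamini-Hochberg adjustment over all tested genes. SE is the log2 fold change over the root of F. The script was tested on simulated data with a smaller spread and far fewer changed genes than the 11 libraries gave. That test does not cover scaling under changes this broad. Named in full are, in each role group, the 3 members with the smallest p in OCI-AML3 and the 1 with the highest fold change. UBTF was added because it passed in neither line. Named further genes are those with the smallest p per list and line. TAF1B was added because it was called against the main direction of its list. Further genes that passed for the difference of effects are named as well. Alternatives were other scalings, filters, DESeq2 1.42.0, a replicate block and leaving out each library. The members and lists were chosen with earlier results of these data known. Replicate numbers were not used to pair libraries in the main fit. Deviations from group means correlated over 0.1 in 2 of 15 pairs of the same number and 1 of 30 of different numbers. With so few libraries per group, this cannot show whether libraries were paired. The level of 1 marker gene is not reported here.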

Additional observations from a re-analysis of the deposited data

Results flagged for a closer look

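Of the 95 further pathway genes, 4 passed edgeR's quasi-likelihood test for the difference of the FHD-286 effects between lines, all higher, where 3.36% of all tested genes passed and 1.98% were higher. LAS1L fell in both lines, and the FLT3-ITD log2 fold changes of BMS1 (-0.097), EFL1 (0.042) and EXOSC9 (0.003) did not pass the test. LAS1L, part of the nuclease complex that cuts the second internal spacer, had a difference of 0.611 on the log2 scale (SE 0.126, adjusted p 0.0287), or 0.531 without the library labelled FLT3-ITD control replicate 2. The exosome ring subunit gene EXOSC9 had 0.589 (SE 0.138, adjusted p 0.0454), or 0.485 without it. EFL1, a GTPase that frees the large subunit of eIF6, had 0.557 (SE 0.125, adjusted p 0.0397), or 0.488 without it. BMS1, a GTPase of the early small subunit particle, had 0.364 (SE 0.083, adjusted p 0.043), or 0.332 without it. Without that library 20 of the 95 genes were higher in the difference and 1 was lower, where 9.63% and 7.39% of all tested genes were. Leaving out 1 OCI-AML3 library instead left 0.379% to 0.806% of all tested genes higher in the difference. Whether the 4 genes still passed then is not given here.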

How the results depend on the processing

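The counts of members that fell or were lower stayed within 1.5 times of those given under other scalings, filters, DESeq2 and the replicate block. Removal of the 18 members sharing over 10% of exon length left 36 lower in OCI-AML3, 25 in the FLT3-ITD line and 23 between untreated lines. A shorter list lowers these counts by itself, so they do not show whether shared exons matter. Leaving out 1 library gave 51 to 54 members lower in OCI-AML3, 20 to 54 in the FLT3-ITD line and 20 to 43 between untreated lines. Members higher numbered 0 to 2 in the FLT3-ITD line without 1 library, 2 with upper-quartile factors, 2 with library totals, 2 with a filter that kept genes reaching a CPM of 1 in 3 libraries and 0 with no filter on low counts. Library totals gave 1 higher in OCI-AML3. In the difference of effects 0 to 12 were higher without 1 library, 2 with the CPM filter and 5 with DESeq2's Wald test. Between untreated lines 0 to 1 were higher without 1 library. The values that changed sign while past the threshold in either fit were RRP1B in the difference (-0.438 to 0.331 without 1 library) and LTV1 between untreated lines (-0.226 to 0.233), both highest without the library labelled FLT3-ITD control replicate 2, and the cause was not tested. Of 4032 values of single members under alternatives, 3773 kept direction and side of the threshold, 41 changed sign without passing in either fit, 101 newly passed and 115 no longer did. Without that library 6 members changed sign in the difference (RRP1B, IMP3, BYSL, EMG1, PPAN and RRP12) and 4 between untreated lines (LTV1, GNL2, TCOF1 and WDR12). With the replicate block 53 and 34 members were lower with FHD-286 in OCI-AML3 and the FLT3-ITD line, none was called in the difference and 34 were lower between untreated lines.

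Library totals put the median of all tested genes at 0.169 in OCI-AML3, beside 0.015 with TMM, and changed its calls to 3025 lower and 5161 higher, against 4074 and 3742 with TMM. The summed levels were then 6516 CPM in treated and 10580 CPM in control OCI-AML3, and 6429 CPM in treated and 8657 CPM in control FLT3-ITD. The limits are 2 treated FLT3-ITD libraries, 1 control that stands apart from its label, and replicates of unstated origin. edgeR put the biological coefficient of variation at 0.193, or at 0.0652 without that control. Members sharing exons, such as PPAN (59.8%) and IMP3 (59.3%), and hosts of small nucleolar RNAs may hold counts of other genes. The overlap of PPAN is on its own strand and that of IMP3 is on the opposite strand. Whether overlaps on the opposite strand matter depends on the strand setting of the counts, which is not given.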
